A study of Homo sapiens with 7 samples.

Results

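Chromosome folding in DNMT3B knockout cells after 10 d of auxin was set against folding in the same cells after 4 d of auxin. Both libraries come from DLD-1, an established colorectal adenocarcinoma line, with the genotype DNMT1-AID;DNMT3b -/-, and they were chosen by their titles, 2 of the 7 Hi-C libraries of the series. The 5 others are DNMT1-AID cells with DNMT3B intact at auxin 10 d and 4 d, which give the same contrast for comparison, an untreated library of each line, which is given as a level only, and a washout library, which is not analysed here. The untreated library of the knockout line was grouped by its title, since its genotype label names only DNMT1-AID. All 6 libraries used carry the auxin-inducible degron on DNMT1, so an effect of auxin itself, or of longer culture, cannot be told apart from the loss of DNMT1. Whether the knockout line is 1 clone is not given in the sources used here.

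DNMT1 is the maintenance DNA methyltransferase, which copies methylation onto the new strand after each replication. Degrading it lets methylation thin out as cells divide. DNMT3B is a de novo methyltransferase that methylates satellite repeats next to centromeres. Its loss in the human ICF syndrome leaves the satellite heterochromatin of chromosomes 1, 9 and 16 undermethylated and prone to decondense. In Hi-C, DNA that lies close together in the nucleus is cross-linked, cut, joined and sequenced, so that each read pair counts 1 contact. Contacts fall off with distance along a chromosome arm, and chromosomes keep largely to territories of their own, with gene-rich chromosomes meeting each other more often than gene-poor ones. The deposited sums hold no methylation, no expression and no single loci, so neither the knockout nor the loss of DNMT1 protein can be checked in them.

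The knockout libraries had near equal depth, with 132768865 contacts at 10 d and 133252390 contacts at 4 d. Contacts were counted from a separation of 100 kb up on chromosomes 1 to 22 and X. The DNMT1-AID libraries set beside them differed in depth, with 158423127 contacts at 10 d and 222645438 at 4 d. The part of depth in differences between the genotypes was not tested. With 1 library per group there is no test and no spread between cultures. Intervals given here are 95% exact binomial (Clopper-Pearson) intervals, which cover counting error only. Log2 values are 10 d over 4 d, so that a positive value means more at 10 d.

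Knockout cells at 10 d had more contacts between chromosomes and more contacts over very long distances within arms than at 4 d, and fewer contacts under 1 Mb. Contacts under 1 Mb made up 58.2% of all contacts within arms at 10 d (interval 58.2072 to 58.2277%) and 62.1% at 4 d (62.1401 to 62.1595%). The share at 1 to 10 Mb was 25.2% at 10 d and 23.4% at 4 d. The share at 10 to 50 Mb was 14.3% at 10 d and 12.9% at 4 d. Each of these 3 shifts had the same direction in every one of the 41 arms measured: the share under 1 Mb was lower in 41 of 41, and the shares at 1 to 10 Mb and at 10 to 50 Mb were higher in 41 of 41. The bands are shares of the same total, so these are not separate results. The number of contacts at 1 to 10 Mb was not higher, with 22429868 at 10 d and 22465550 at 4 d. At 10 to 50 Mb it was 12690891 at 10 d and 12368716 at 4 d. On the log2 scale the shift was largest beyond 50 Mb, the smallest of the bands, with 2.26% of contacts at 10 d (interval 2.25243 to 2.2586%) against 1.58% at 4 d (1.57843 to 1.58342%), which is 1.43-fold, or 0.51 on the log2 scale. All 20 arms long enough for that band had a higher share at 10 d, by 0.37 to 0.66.

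Among the long arms, 11q had the highest log2 ratio beyond 50 Mb (0.66), with a share of 1.74% at 10 d and 1.10% at 4 d. On 2p the share beyond 50 Mb was 1.57% at 10 d and 1.01% at 4 d, and on 1p it was 2.81% at 10 d and 1.83% at 4 d. The next were 13q and 7q, both at 0.57. The smallest log2 ratio was on Xq, 0.37, where the share was 1.63% at 10 d and 1.26% at 4 d. On 10q the share was 2.56% at 10 d and 1.95% at 4 d, a log2 ratio of 0.39, followed by 6q (0.44), 9q (0.45) and 2q (0.48). Over these 20 arms, which share the same pair of libraries, the log2 ratio beyond 50 Mb had a Pearson's r of -0.0021 and a Spearman's rho of 0.080 with arm length. The small arms led at 1 to 10 Mb: on 19p, the gene-dense short arm of chromosome 19, the share was 24.6% at 10 d and 20.7% at 4 d, a log2 ratio of 0.25. The arms 18p (0.22), 17p (0.21), 20q (0.21) and 22q (0.20) came next. The large arms 5q (0.069), 4q (0.077), 8q (0.078), 3q (0.084) and 6q (0.085) were the lowest.

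Under 1 Mb, Xq had the lowest log2 ratio, with a share of 50.9% at 10 d and 55.9% at 4 d (-0.14). The arms 2p (-0.12), 5q (-0.12), 3p (-0.11) and 2q (-0.11) followed. The ratio was nearest 0 on 5p, with 60.2% at 10 d and 62.3% at 4 d (-0.048), and then on 16p (-0.049), 20p (-0.050), 21q (-0.058) and 18q (-0.061). At 10 to 50 Mb the highest arms were 17q, with 9.52% at 10 d and 7.57% at 4 d (0.33), 7p (0.33), 19q (0.32), 9q (0.29) and 19p (0.27). The lowest there were 5p (0.034), 18p (0.041), 18q (0.073), 4q (0.087) and 20q (0.091). The short arm of chromosome 5 thus had the smallest log2 ratio in both bands.

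The shares were set out in finer steps as balanced contact per bin pair, the authors' matrix-balanced signal divided by the number of valid pairs of 50 kb bins at that separation. Balancing gives each bin the same total, so a higher share of contacts between chromosomes lowers the balanced contact left for arms, and the sum within arms was lower at 10 d by a log2 ratio of -0.095. As deposited, contact was lower at 10 d in all 9 steps under 1 Mb and in 41 of 41 arms at each, with a log2 ratio of -0.28 at the shortest separations, 0.1 to 0.126 Mb, and -0.084 at 0.794 to 1 Mb. It was slightly higher from 1.58 to 7.94 Mb, up to 0.062 at 3.16 to 3.98 Mb, where 37 of 41 arms were higher. From 7.94 to 20 Mb it lay between -0.023 and 0.014. Further out it was above 0, at 0.22 at 39.8 to 50.1 Mb, 0.53 at 79.4 to 100 Mb and 0.56 at 100 to 126 Mb, the last of these from 4 arms. Some signs between 0.794 and 20 Mb depend on the scaling. With both libraries scaled to the same sum within arms, 23 of 31 steps were higher at 10 d, against 17 as deposited. Contact was then lower in 8 of the 9 steps under 1 Mb, with 0.011 in the step at 0.794 to 1 Mb, and the log2 ratio lay between 0.072 and 0.11 from 7.94 to 20 Mb.

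**Figure D1:**
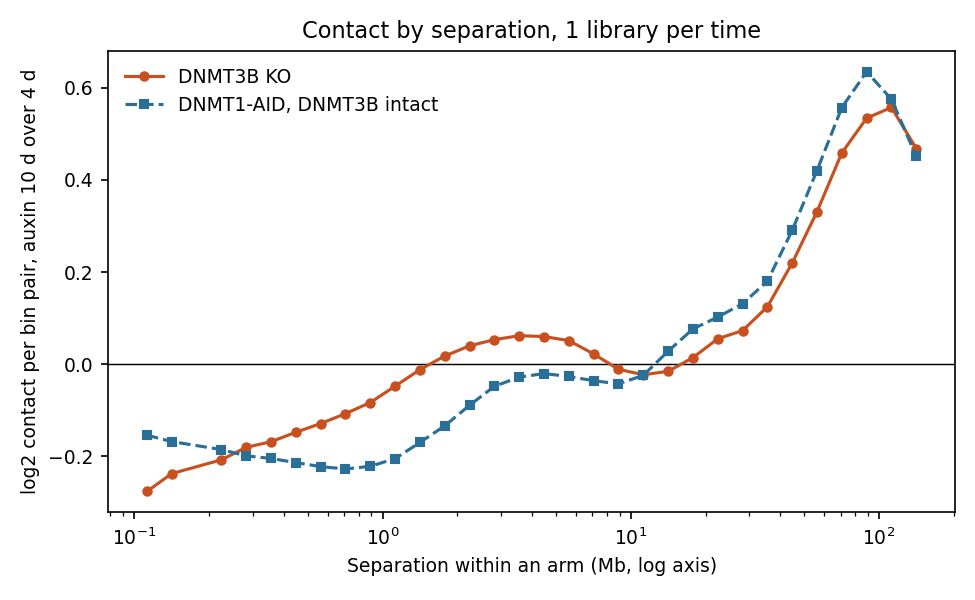
Log2 ratio of balanced contact per bin pair, auxin 10 d over 4 d, on the vertical axis against separation within an arm in Mb on a log axis, pooled over arms, with 1 library per time. Circles are DNMT3B knockout cells and squares are DNMT1-AID cells with DNMT3B intact. The knockout curve starts at -0.28, is above 0 and above the other curve from 1.58 to 7.94 Mb, and both are past 0.5 at 79.4 to 100 Mb. Values are not scaled to the sum within arms, and with that scaling both curves are above 0 from 2 Mb on.

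Cells with DNMT3B intact also had more contact at 10 d at the longest separations, and a lower log2 ratio than knockout cells at the middle ones. At 3.16 to 3.98 Mb the log2 ratio was 0.062 in knockout cells and -0.028 in DNMT1-AID cells, where 5 of 41 arms were higher. Scaled to the same sum within arms it was 0.16 in knockout cells and 0.083 in DNMT1-AID cells, so the sign no longer differed. The share at 1 to 10 Mb was higher at 10 d in both, by 0.11 in knockout cells and 0.021 in DNMT1-AID cells, where 37 of 41 arms were higher. At 0.794 to 1 Mb it was -0.084 in knockout cells and -0.22 in DNMT1-AID cells, and at the shortest separations the order was the other way, -0.28 in knockout cells and -0.15 in DNMT1-AID cells. At 79.4 to 100 Mb it was 0.53 in knockout cells and 0.64 in DNMT1-AID cells. Set against contact between chromosomes, the level at this last step was 4.86 times the mean trans contact per bin pair at 10 d and 3.95 times at 4 d in knockout cells, and the log2 change of that quotient was 0.30 in both genotypes. These differences between genotypes were not tested, since each rests on 4 single libraries.

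The same shift appears in the slope of the decay, the exponent of contact against separation on log axes, where a value nearer 0 is a shallower decay. From 0.5 to 5 Mb the exponent was -1.41 at 10 d and -1.48 at 4 d in knockout cells, with -1.49 in the untreated library of the line. It was shallower at 10 d in 41 of 41 arms, by 0.021 to 0.11, with a median of 0.069. The difference was largest on 19p, with -1.33 at 10 d and -1.45 at 4 d, followed by 2p (0.11), 17p (0.099), 7p (0.098) and 10p (0.096). It was smallest on 5p, with -1.35 at 10 d and -1.37 at 4 d, and next on 16p (0.022), 8q (0.036), 20p (0.037) and 18q (0.042). The size depended on the range: from 1 to 10 Mb the pooled change was 0.014, against 0.070 from 0.5 to 5 Mb.

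From 5 to 50 Mb the exponent was -0.74 at 10 d and -0.79 at 4 d, and 24 of the 25 arms that span the range were shallower at 10 d. The exception was Xq, which was steeper, with -0.96 at 10 d and -0.91 at 4 d. At the other end was 3p, with -0.77 at 10 d and -0.89 at 4 d, followed by the short arm of X, with -0.81 at 10 d and -0.92 at 4 d, and by 17q (a difference of 0.098), 1p (0.097) and 3q (0.083). After Xq the lowest differences were on 18q (0.031), 4q (0.033), 2q (0.034) and 11q (0.036). The pooled change over this range was 0.054 in knockout cells and 0.10 in DNMT1-AID cells, and the knockout value lay below the DNMT1-AID value in 25 of 25 arms. The pooled exponent in DNMT1-AID cells was -0.81 at 10 d, -0.91 at 4 d and -0.81 in the untreated library. The untreated knockout library was at -0.83. On Xq the change was -0.052 in knockout cells and -0.0096 in DNMT1-AID cells, so the arm was the lowest in both genotypes.

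Long-range contact was then followed arm by arm as the share of an arm's contacts at 10 Mb or more. Pooled over arms this share was 16.5% at 10 d (interval 16.5309 to 16.5463%) and 14.5% at 4 d (14.4521 to 14.4662%), a log2 ratio of 0.19, beside 13.8% in the untreated knockout library. Counted only from contacts at 1 Mb or more, the log2 ratio was 0.051. The share was higher at 10 d in 41 of 41 arms, with log2 ratios of 0.034 to 0.33 and a median of 0.18, and 37 of 41 arms (90.2%) were past 0.1. With contacts from 1 Mb on it was higher in 35 of 41 arms.

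The arm with the largest log2 ratio was 17q, where 9.62% of contacts spanned 10 Mb or more at 10 d and 7.63% at 4 d, a log2 ratio of 0.33. On 7p the share was 12.2% at 10 d and 9.71% at 4 d, and on 19q it was 6.51% at 10 d and 5.20% at 4 d. The long arm of chromosome 9, below its satellite block, had 13.1% at 10 d and 10.6% at 4 d, and the acrocentric arm 15q had 14.3% at 10 d and 11.7% at 4 d. All 5 were also above 0 with contacts from 1 Mb on, at 0.093 on 9q to 0.13 on 7p. With a boundary of 20 Mb, 19q was at 0.13, near the lowest of 38 arms (0.097). At the low end stood 5p, with 11.3% at 10 d (interval 11.2331 to 11.3433%) and 11.03% at 4 d (10.9758 to 11.0781%). On 18p the share was 1.09% at 10 d (interval 1.05 to 1.12%) and 1.06% at 4 d (1.03 to 1.09%). These intervals overlap, and the difference itself was not tested. Next came 18q with 14.4% at 10 d and 13.6% at 4 d, 20q with 7.39% at 10 d and 6.94% at 4 d, and 9p with 10.5% at 10 d and 9.72% at 4 d. Chromosome 9 thus had its long arm at the high end and its short arm at the low end. The place of these 5 arms depends on the setting. With a boundary of 5 Mb, 18p was at 0.24, 9p at 0.14 and 20q at 0.14. With a boundary of 20 Mb, 5p was at 0.11 and 9p at 0.19, and from balanced sums 18p was at 0.0028. With contacts counted from 1 Mb on, the log2 ratios were below 0, -0.041 on 5p, -0.17 on 18p, -0.0086 on 18q, -0.090 on 20q and -0.028 on 9p.

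**Figure D2:**
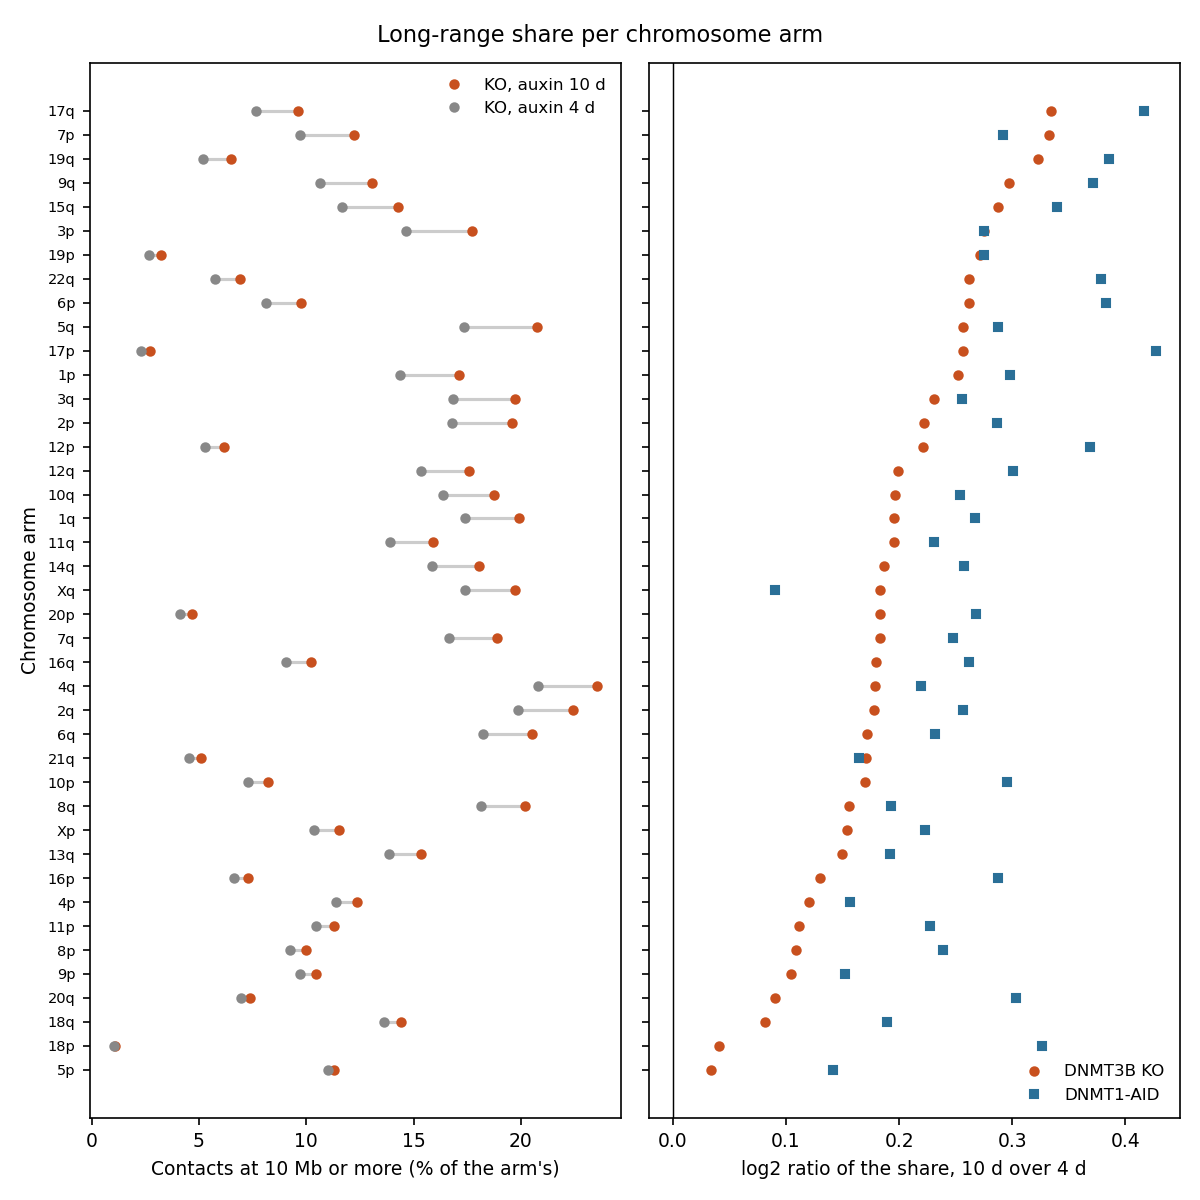
Left, percent of an arm's contacts that span 10 Mb or more in DNMT3B knockout cells at auxin 10 d (orange) and 4 d (grey), with arms sorted by their change. Right, log2 ratio of that share, 10 d over 4 d, in knockout cells (circles) and in DNMT1-AID cells (squares). Every circle lies right of 0, between 0.034 on 5p and 0.33 on 17q, and 37 of 41 circles lie left of their square.

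The change was smaller in knockout cells than in DNMT1-AID cells in 37 of 41 arms. The pooled log2 ratio was 0.19 in knockout cells and 0.25 in DNMT1-AID cells, and the levels at 10 d were close, 16.5% in knockout cells and 16.9% in DNMT1-AID cells. The untreated DNMT1-AID library had 16.3% and its 4 d library 14.1%, so 4 d lay below the untreated level. In knockout cells 4 d, at 14.5%, lay above the untreated 13.8%. The gap was widest on 18p, with 0.041 in knockout cells and 0.33 in DNMT1-AID cells, and on 20q, with 0.091 in knockout cells and 0.30 in DNMT1-AID cells. The knockout value on 18p rests on 4129 contacts at 10 d and 4491 at 4 d. The knockout values on both arms depended on the setting, as given above. The 4 arms with a higher log2 ratio in knockout cells were led by Xq, with 0.18 in knockout cells and 0.091 in DNMT1-AID cells. Over the 41 arms, which share their libraries, the changes in the 2 genotypes had a Pearson's r of 0.62 and a Spearman's rho of 0.64. The knockout change per arm had r = 0.47 and rho = 0.49 with protein-coding genes per Mb, and r = 0.17 and rho = 0.13 with arm length.

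Contacts between chromosomes made up 29.2% of all contacts at 10 d (interval 29.2117 to 29.2272%) and 24.4% at 4 d (24.3992 to 24.4138%) in knockout cells, 1.20-fold or 0.26 on the log2 scale. The untreated knockout library had 25.2%, so 4 d lay below it and 10 d above it. Since contacts closer than 1 Mb are in the denominator and were fewer at 10 d, the share was also taken with contacts within chromosomes from 1 Mb on, where the log2 ratio was 0.11. Every chromosome had a higher trans share at 10 d, by 0.18 to 0.30, with a median of 0.25 over 23 chromosomes. The ratio was highest on the gene-poor chromosome 4, with 24.3% at 10 d and 19.7% at 4 d. Chromosome 18, also gene-poor, had 32.7% at 10 d and 26.6% at 4 d, and chromosome 6 had 27.1% at 10 d and 22.1% at 4 d. It was lowest on chromosome 19, the most gene-dense chromosome at 24.7 protein-coding genes per Mb, with 39.8% at 10 d and 35.2% at 4 d. Chromosome 22, which carries ribosomal DNA on its short arm, had 45.1% at 10 d and 39.6% at 4 d, and the gene-rich chromosome 17 had 41.2% at 10 d and 35.9% at 4 d. The log2 ratio was smaller on chromosomes rich in trans contact at 4 d, with r = -0.66 and rho = -0.59 between the ratio and the 4 d share over 23 chromosomes, a relation in which the 4 d value enters both sides.

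The trans change per chromosome was lower where genes were denser, with r = -0.67 and rho = -0.71 in knockout cells and r = -0.59 and rho = -0.66 in DNMT1-AID cells. Coverage moved with it. Raw contacts per valid bin at 10 d over 4 d, set to 1 for the median chromosome, were 1.19 on chromosome 19, 1.13 on chromosome 22 and 1.08 on chromosome 17, and 0.958 on chromosome 4, 0.963 on chromosome 13 and 0.979 on chromosome 6. In DNMT1-AID cells the coverage ratio was 1.08 on chromosome 19, 1.06 on chromosome 22 and 1.03 on chromosome 17. Coverage change had r = 0.89 and rho = 0.82 with gene density in knockout cells, and r = -0.79 and rho = -0.75 with the trans change. Its part in the trans change was not tested. On chromosome 8, coverage in knockout cells over that in DNMT1-AID cells was 1.46 at both times, with the median chromosome set to 1. Between the knockout libraries at 10 d and 4 d, chromosome 8 was the median chromosome by coverage ratio. Leaving it out gave a trans log2 ratio of 0.26.

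**Figure D3:**
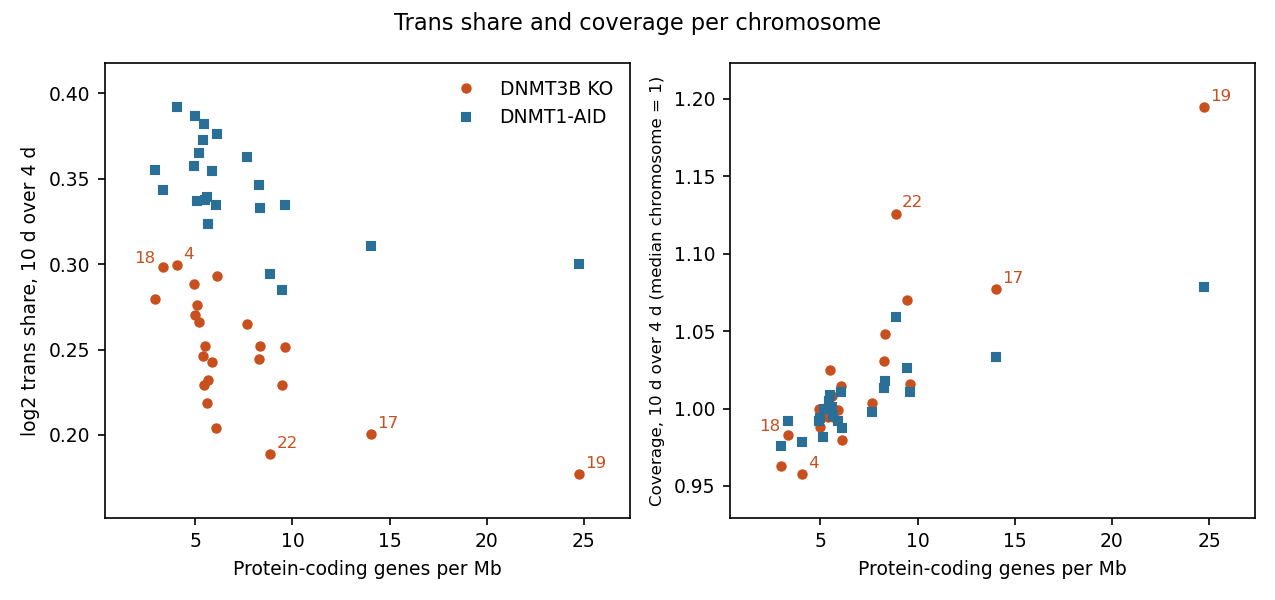
Left, log2 ratio of the trans share of each chromosome, auxin 10 d over 4 d, and right, coverage (raw contacts per valid bin) at 10 d over 4 d with the median chromosome set to 1, both against protein-coding genes per Mb. Circles are DNMT3B knockout cells and squares are DNMT1-AID cells. All 23 circles lie above 0 and below their square on the left, and chromosome 19 stands apart on the right at 1.19.

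In DNMT1-AID cells the trans share was 26.2% at 10 d and 20.5% at 4 d, beside 21.4% in the untreated library of that line. The log2 ratio was 0.26 in knockout cells and 0.35 in DNMT1-AID cells, and it was smaller in knockout cells on 23 of 23 chromosomes. The level was higher in the knockout line at both times. Over the 23 chromosomes the changes of the 2 genotypes had r = 0.67 and rho = 0.64.

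Contact across the centromere was measured as the ratio of balanced contact per bin pair between the arms of a chromosome to that within its arms at the same separations, from 20 to 50 Mb, on the 18 chromosomes with enough bin pairs of both kinds. A ratio of 1 means that arms meet each other as often as loci equally far apart within an arm do. Knockout cells had a lower ratio at 10 d than at 4 d, and the difference was largest on chromosome 16. Pooled over chromosomes the ratio was 0.706 at 10 d and 0.779 at 4 d, a log2 ratio of -0.14, beside 0.846 in the untreated knockout library. It was lower at 10 d on 15 of 18 chromosomes, and 10 of 18 (55.6%) were past -0.1.

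Chromosomes 1, 9 and 16, the 3 with large satellite blocks beside the centromere, were all past -0.1, and their pooled ratio was 0.838 at 10 d and 1.12 at 4 d, a log2 ratio of -0.42. The other 15 chromosomes had a pooled ratio of 0.699 at 10 d and 0.761 at 4 d, a log2 ratio of -0.12. Through the times without auxin, at 4 d and at 10 d, the ratio of chromosome 16 was 1.54, 1.26 and 0.890, that of chromosome 1 was 1.32, 1.07 and 0.832, and that of chromosome 9 was 1.08, 0.925 and 0.748. All 3 were thus highest without auxin and below 1 at 10 d, as were most chromosomes, with 16 of 18 highest without auxin and 18 of 18 below 1 at 10 d. Chromosome 16 had the lowest log2 ratio of the 18 (-0.50), chromosome 1 the next (-0.36) and chromosome 9 the third (-0.31). The inter-arm contacts behind these ratios numbered 55602 at 10 d and 56509 at 4 d on chromosome 16, 19446 at 10 d and 20115 at 4 d on chromosome 1, and 21714 at 10 d and 22644 at 4 d on chromosome 9.

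Chromosomes without a large satellite block also had lower ratios. On chromosome 3 the ratio was 0.700 at 10 d and 0.849 at 4 d, a log2 ratio of -0.28, and on chromosome 2 it was 0.710 at 10 d and 0.854 at 4 d, or -0.27. Chromosome 17 had 0.926 at 10 d and 1.11 at 4 d, or -0.26. The log2 ratio was -0.20 on chromosome 5, -0.19 on 6, -0.16 on 10, -0.15 on 12, -0.0998 on 4, -0.095 on 7, -0.087 on 8, -0.066 on 19 and -0.039 on X. The 3 chromosomes with a higher ratio at 10 d were 11 (0.640 at 10 d and 0.618 at 4 d), 18 (0.706 at 10 d and 0.685 at 4 d) and 20 (0.757 at 10 d and 0.740 at 4 d). Of these, chromosome 11 was at -0.067 from 30 to 60 Mb and chromosome 20 at -0.059 from raw counts. Other settings also moved chromosomes over the -0.1 line: from 30 to 60 Mb chromosome 12 was at -0.073, 7 at -0.12 and 8 at -0.17, and from 10 to 40 Mb chromosome 4 was at -0.11 and 19 at -0.10. From raw counts chromosome 7 was at -0.059 and chromosome 8 at -0.034. Over the 18 chromosomes the change had r = -0.81 and rho = -0.78 with the log2 ratio at 4 d, which enters both sides of the relation.

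**Figure D4:**
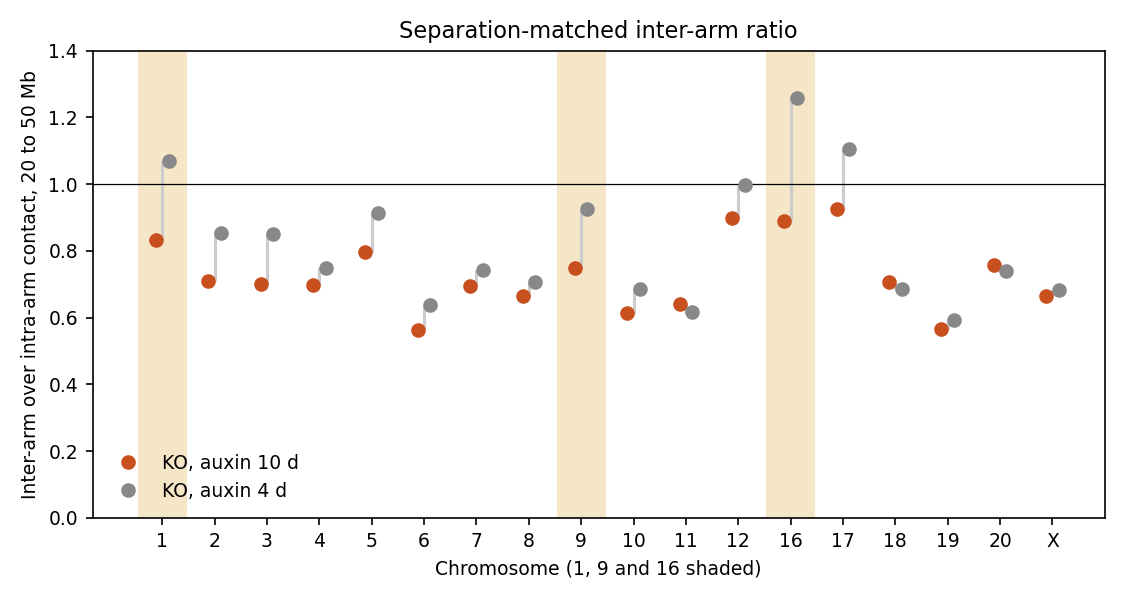
Ratio of inter-arm to intra-arm balanced contact per bin pair at equal separation, 20 to 50 Mb, for each of 18 chromosomes in DNMT3B knockout cells at auxin 10 d (orange) and 4 d (grey), with chromosomes 1, 9 and 16 shaded and a line at 1. On chromosome 16 the ratio was 0.890 at 10 d and 1.26 at 4 d, the widest gap shown.

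The ratio has a part for each kind of contact. Balanced contact between arms itself had a log2 ratio of -0.017, while contact within arms at the same separations was higher by 0.12. As deposited, the contact between arms was lower on 13 of 18 chromosomes. It was lowest on chromosome 16 (-0.18), followed by 2 (-0.13), 1 (-0.12), 20 (-0.093), 6 (-0.077) and 9 (-0.071). The balanced sum within arms itself had a log2 ratio of -0.095, and only chromosomes 16, 2 and 1 lay below that. The count of 13 and the sign of the pooled -0.017 thus depend on the scaling. The raw share of inter-arm contacts among all contacts within chromosomes ran the other way, 5.45% at 10 d and 4.65% at 4 d. The matched ratio was also lower at other separations, with 0.831 at 10 d and 0.914 at 4 d from 10 to 20 Mb (lower on 14 of 15 chromosomes), and 0.778 at 10 d and 0.904 at 4 d from 50 to 100 Mb (lower on 12 of 14).

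DNMT1-AID cells also had a lower ratio at 10 d on the satellite-bearing chromosomes. For chromosomes 1, 9 and 16 together the log2 ratio was -0.42 in knockout cells and -0.41 in DNMT1-AID cells, and for the other 15 it was -0.12 in knockout cells and -0.16 in DNMT1-AID cells. The level differed, with 0.838 in knockout cells and 1.15 in DNMT1-AID cells at 10 d for the 3 chromosomes. The genotypes were furthest apart on chromosome 19, with -0.066 in knockout cells and -0.51 in DNMT1-AID cells. That chromosome had the fewest bin pairs within arms of all those measured, 22782. Its arms 19p and 19q are 25.85 and 32.8 Mb long, so its ratio covers no separation beyond 32.8 Mb. On X the sign differed, with -0.039 in knockout cells and 0.11 in DNMT1-AID cells.

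For contacts between chromosomes, each pair of the 23 chromosomes was measured as balanced contact per bin pair. Its log2 change was set against the median change over all pairs, 0.23, which means more contact at 10 d than at 4 d. The relative log2 change ran from -0.13 to 0.097 with an SD of 0.042 over pairs, 34 pairs (13.4% of all) were past 0.05 and 31 pairs (12.3%) were past -0.05. Exact binomial intervals of a pair's counts at both times reached 0.0057 to 0.028 to either side on the log2 scale, depending on the pair.

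The pair with the lowest value was 9-17, with 114939 contacts at 10 d and 101326 at 4 d and a relative log2 change of -0.13. The pair 9-22 had 54546 contacts at 10 d and 46844 at 4 d (-0.13), and 17-22, both gene-rich, had 61974 at 10 d and 50928 at 4 d (-0.12). The next were 9-15 (-0.11), 20-X (-0.10), 7-15 (-0.091), 3-15 (-0.090) and 3-17 (-0.089). Chromosomes 9, 15 and 17, picked here from these pairs, were in 7 of the 8, and 24.9% of all pairs hold at least 1 of them. Chromosome 17 also had 4 pairs past 0.05. The pair with the highest value was 2-18, with 161497 contacts at 10 d and 130010 at 4 d and a relative log2 change of 0.097. The pair 10-21 had 74252 contacts at 10 d and 58591 at 4 d (0.091), and the gene-rich pair 19-20 had 88421 at 10 d and 64121 at 4 d (0.089). The next were 6-21 (0.086), 4-13 (0.079), 12-19 (0.077), 10-18 (0.077) and 1-18 (0.076). Chromosome 18, also picked here from these pairs, was in 3 of the 8 highest, and each chromosome is in 22 pairs.

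Values leaned one way along some whole chromosomes. The 22 pairs of chromosome 15 had a median of -0.044, with 19 of 22 below 0 and 10 past -0.05, those of chromosome 9 a median of -0.032 with 19 of 22 below 0, and those of chromosome 3 a median of -0.028. At the other end, chromosome 18 had a median of 0.031 with 15 of 22 above 0 and 8 past 0.05, chromosome 8 a median of 0.029 with 19 of 22 above 0, and chromosome 6 a median of 0.027. Dividing raw counts by the trans totals of both chromosomes takes out most of what a chromosome's pairs share. By that measure the pairs 9-17, 9-22, 17-22 and 20-X were at -0.073, -0.080, -0.095 and -0.11, and 2-18 and 10-21 at 0.059 and 0.069, while 9-15, 7-15 and 3-15 were between -0.027 and -0.026 and 3-17 was at -0.049. The other 6 of the 8 highest pairs were under 0.05 by it, from 0.020 for 19-20 to 0.048 for 12-19. The lowest pair by the raw measure was 18-21 at -0.13, which was at -0.063 by balanced contact, and the highest was 10-22 at 0.075. The raw medians of the pairs of chromosomes 15, 9 and 18 were -0.0030, -0.0017 and -0.0053, so the sign turned on chromosome 18. Over all pairs, which share their libraries, both measures had r = 0.69 and rho = 0.68. The number of pairs past 0.05 in either direction was 65 by balanced contact and 28 by the raw measure.

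**Figure D5:**
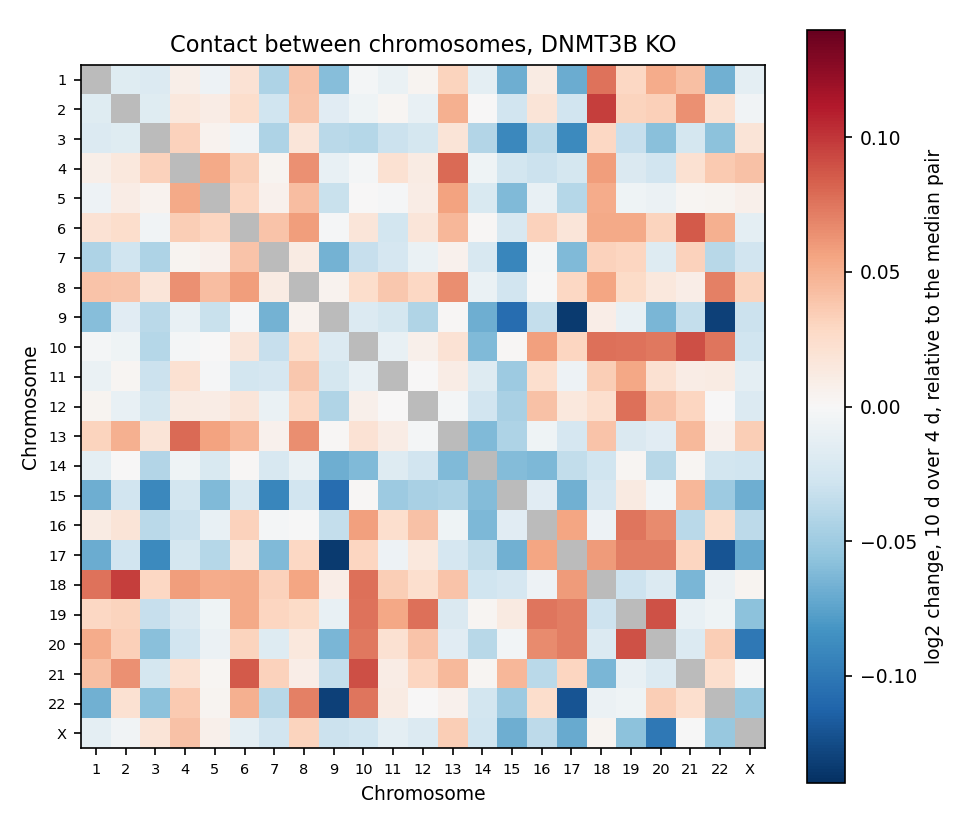
Log2 change of balanced contact per bin pair between chromosomes, auxin 10 d over 4 d in DNMT3B knockout cells, relative to the median of all pairs, with chromosomes on both axes and the diagonal in grey. Red squares are pairs above the median pair and blue squares pairs below it, from -0.13 for 9-17 to 0.097 for 2-18. Blue runs along chromosomes 9 and 15 and red along chromosome 18.

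Lists of chromosomes, chosen with earlier results of these data known, were then compared with all pairs. The gene-rich small chromosomes 16, 17, 19, 20 and 22, which gather near the nuclear centre, met each other at 1.4 log2 units above the median pair at 10 d and 1.3 at 4 d. Of their 10 pairs, 8 were above 0 and 6 past 0.05 (13.4% of all pairs were), with a median of 0.061, and 17-22 was the lowest at -0.12. The list called gene-poor here holds chromosomes 4, 5, 13, 18 and X. X has 5.43 protein-coding genes per Mb, and chromosome 8, which is not listed, has 4.93. The listed chromosomes, which tend to lie at the nuclear edge, were at -0.53 at 10 d and -0.59 at 4 d relative to the median pair. All 10 of their pairs were above 0, with 5 past 0.05, a median of 0.046 and a range of 0.0044 for 18-X to 0.079 for 4-13. The acrocentric chromosomes 13, 14, 15, 21 and 22, whose ribosomal DNA comes together in nucleoli, were at 0.34 at 10 d and 0.35 at 4 d. Of their 10 pairs 5 were above 0, none was past 0.05 and 3 were past -0.05 (12.3% of all pairs were), with a median of -0.011. By raw counts divided by trans totals the medians were 0.026 for the gene-rich, 0.017 for the gene-poor and 0.0019 for the acrocentric pairs, so the gene-rich and gene-poor medians were smaller by more than 1.5 times and the acrocentric sign turned. Coverage was higher at 10 d on the gene-rich chromosomes, as given above, and its part in their pair values was not tested.

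In DNMT1-AID cells the median of the gene-rich pairs was on the other side of 0, with 0.061 in knockout cells and -0.046 in DNMT1-AID cells, where 1 of 10 pairs was above 0. By the raw measure these medians were 0.026 in knockout cells and -0.025 in DNMT1-AID cells. The gene-poor pairs had a median on the same side, with 0.046 in knockout cells and 0.045 in DNMT1-AID cells, where 9 of 10 pairs were above 0. By the raw measure they were at 0.017 in knockout cells and -0.0032 in DNMT1-AID cells, where 3 of 10 pairs were above 0. For the acrocentric pairs the median was -0.011 in knockout cells and -0.026 in DNMT1-AID cells. The 5 lowest knockout pairs had DNMT1-AID values of -0.041 for 9-17, -0.033 for 9-22, -0.093 for 17-22, -0.025 for 9-15 and 0.059 for 20-X. Over all pairs of the 23 chromosomes the relative changes in the 2 genotypes had r = 0.19 and rho = 0.22.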

How the data were processed

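Hi-C read pairs of 6 DLD-1 libraries were aligned by the authors; the submitters' processing notes name BWA and hg38. The sources used here do not give versions, pair filters or the balancing program. The authors deposited, for each library, sums in 50 kb bins by separation within arms, within chromosomes and between arms, and for each chromosome pair. The contact counts are raw whole-number counts, per the file headers and the values. The deposited signal, balanced per the file headers, gives each bin the same total. Deposited sums start at 100 kb. Chromosomes Y and M, and the arms 13p, 14p, 15p, 21p and 22p (under 1000 counts or no bin pairs at 10 Mb), were left out. Another library and the files of bin clusters were not used here.

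Shares came from raw counts, and contact per valid bin pair from balanced sums. The exponent is a least-squares slope over 20 log-spaced bins. Gene density used 19974 protein-coding genes of RefSeq, assembly GRCh38.p14. Depth was 101594306 to 222645438 contacts. Groups came from the titles and treatment labels, with 1 library each and no test. Named were the 5 highest and 5 lowest arms per measure, the 3 highest and 3 lowest chromosomes, all inter-arm chromosomes and the 8 highest and 8 lowest pairs. Chromosome lists and measures were chosen with earlier results of these data known. Alternatives changed boundaries, balanced against raw values and the averaging. Scripts (Python 3.11.15, numpy 2.4.6, pandas 2.3.3, scipy 1.17.1) were tested on simulated data.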

Additional observations from a re-analysis of the deposited data

Results flagged for a closer look

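Several values had opposite signs in the contrast of 10 d over 4 d in knockout cells and in DNMT1-AID cells. The difference between the genotypes was not tested for any of them, since each rests on 1 library per group. In contact per bin pair within arms, the log2 ratios in knockout cells were 0.017, 0.040, 0.053, 0.062, 0.060, 0.051 and 0.022 in the 7 steps from 1.58 to 7.94 Mb. In DNMT1-AID cells the same steps, in the same order, gave -0.13, -0.090, -0.048, -0.028, -0.021, -0.027 and -0.036. At 12.6 to 15.8 Mb the value was -0.016 in knockout cells and 0.028 in DNMT1-AID cells. These opposite signs depend on the scaling. Scaled to the same sum within arms, the DNMT1-AID values were above 0, as in knockout cells, in all of these steps except 1.58 to 2 Mb, where the value was 0.11 in knockout cells and -0.022 in DNMT1-AID cells. At 12.6 to 15.8 Mb the scaled value was 0.079 in knockout cells and 0.14 in DNMT1-AID cells. Balanced contact between arms at 20 to 50 Mb was -0.017 in knockout cells and 0.038 in DNMT1-AID cells, as deposited. The sum within arms had a log2 ratio of -0.095 in knockout cells and -0.11 in DNMT1-AID cells. Both inter-arm values lie above these, so with that scaling both would be above 0.

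The log2 change of the inter-arm ratio was 0.050 in knockout cells and -0.027 in DNMT1-AID cells on chromosome 11, 0.045 and -0.066 on chromosome 18, 0.033 and -0.095 on chromosome 20, and -0.039 and 0.11 on chromosome X, in the same order of genotypes. The knockout sign depends on the setting on chromosomes 11 and 20. It was -0.067 on chromosome 11 from 30 to 60 Mb and -0.059 on chromosome 20 from raw counts. Among chromosome pairs, the relative change was -0.10 in knockout cells and 0.059 in DNMT1-AID cells for 20-X, -0.090 and 0.0037 for 3-15, -0.089 and 0.0087 for 3-17, 0.077 and -0.016 for 10-18, and 0.091 and -0.0091 for 10-21. From raw counts over trans totals the signs were the same for 3-15 (-0.026 in knockout cells and -0.011 in DNMT1-AID cells), 10-18 (0.038 and 0.0079) and 10-21 (0.069 and 0.027), and still opposite for 20-X (-0.11 and 0.0033) and 3-17 (-0.049 and 0.0058). Several of the DNMT1-AID values lie within 0.01 of 0. The median over the pairs of gene-rich small chromosomes was 0.061 in knockout cells and -0.046 in DNMT1-AID cells.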

How the results depend on the processing

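No paired analysis was possible because each group holds 1 library and no test was run. All values are log2 ratios of 10 d over 4 d in knockout cells unless named otherwise. Intervals here are narrow, so small shifts count as moved. The trans share (0.26) was 0.24 from balanced sums, 0.11 with contacts within chromosomes from 1 Mb on, 0.26 without chromosome 8 and 0.25 as the median over chromosomes. For contacts within arms at 10 Mb or more (0.19) the value was 0.27 with a boundary of 20 Mb, 0.17 with 5 Mb, 0.19 within whole chromosomes, 0.051 from 1 Mb on and 0.18 as the median over arms. From 1 Mb on, the sign turned on 5p (-0.041), 18p (-0.17), 18q (-0.0086), 20q (-0.090) and 9p (-0.028). The 0.1 to 1 Mb share was -0.096 from balanced sums and -0.088 as the median over arms, the 1 to 10 Mb share 0.11 and 0.12, the 50 Mb share 0.51 and 0.53, and the 10 to 50 Mb share 0.17 as the median. Steps of separation higher at 10 d numbered 17, and 23 when scaled to the same sum within arms. The exponent change from 0.5 to 5 Mb was 0.076 from raw counts, 0.014 from 1 to 10 Mb and 0.069 as the median, and from 5 to 50 Mb it was 0.053 from raw counts and 0.061 as the median. The inter-arm ratio was -0.14 at 10 to 40 Mb, -0.15 at 30 to 60 Mb, -0.12 pooled over separations and -0.13 from raw counts. It turned to -0.067 on chromosome 11 at 30 to 60 Mb and to -0.059 on chromosome 20 from raw counts. With raw counts over trans totals, 28 pairs were past 0.05, against 65. Medians of the lists were then 0.026 (gene-rich), 0.017 (gene-poor) and 0.0019 (acrocentric, sign turned), and mean within over mean outside gave 0.035, 0.045 and -0.011. The cause of these shifts was not tested. One library per group gives no spread between cultures, and the intervals cover counting error only.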
